A study of Mus musculus with 8 samples.

Results

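Ephrins, Eph receptors, semaphorins, plexins and neuropilins are the contact and diffusible cues, with their receptors, that steer growing axons. Transcripts of all genes so named were compared between hippocampi of mice homozygous for a targeted Wfs1 allele and of wild-type mice. The members were chosen by symbol: Epha, Ephb, Efna, Efnb or Sema followed by a digit, any symbol starting with Plxn, and Nrp1 and Nrp2. The rule found 53 of 24078 entries, of which 28 encode ligands and 25 receptors, and all 53 had enough counts to be tested. The homozygous group held 4 mice with the targeted allele Wfs1tm1Koks on both chromosomes (replicates 15, 16, 17 and 18), and the wild-type group held 4 mice recorded under the same line (replicates 7, 8, 9 and 10). The labels give 1 hippocampal library per animal and no treatment, and age and sex are not known from them. Wfs1 encodes wolframin, a membrane protein of the endoplasmic reticulum.

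Ephrins are bound to the cell surface and act on Eph receptor tyrosine kinases of the cell they touch, and signals run into both cells. Ephrin-A ligands are held by a lipid anchor and mostly bind EphA receptors, whereas ephrin-B ligands cross the membrane and mostly bind EphB receptors and EphA4. Secreted class 3 semaphorins mostly act through a neuropilin joined to a class A plexin, and membrane-bound semaphorins bind plexins directly. In the adult hippocampus the same molecules are known for shaping dendritic spines, mossy fibre paths and synaptic plasticity.

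Libraries held 3250949 to 5077114 counts in homozygous and 3296309 to 6747411 counts in wild-type animals, and the lowest count of any member in any library was 27. Levels below are CPM, the counts of a gene divided by its library's total after TMM scaling and expressed on a common scale, given in the order of replicates above, and a level is compared between genes only per kilobase of merged exon. Wfs1 itself was counted at 16.3, 17.7, 13.3 and 12.03 CPM in homozygous libraries, against 54.6, 47.5, 61.3 and 44.6 CPM in wild-type libraries, without overlap (log2 fold change -1.81, SE 0.16, edgeR adjusted p 2.62e-05). Of the marker lists, hippocampal excitatory neurons had 5 of 10 members lower and 1 higher, GABAergic neurons 3 of 5 lower, astrocytes 4 of 6 lower, oligodendrocytes 6 of 7 lower, and endothelium and pericytes 3 of 7 lower and 1 higher, where 20.4% of all genes tested were lower and 20.7% higher. Their summed levels did not overlap between genotypes: 1157 to 1557 CPM in homozygous against 1593 to 2002 CPM in wild-type libraries for hippocampal excitatory neurons, 234 to 270 against 336 to 353 for GABAergic neurons, 2194 to 2401 against 3235 to 4044 for astrocytes, 964 to 1189.8 against 1426 to 2274 for oligodendrocytes, and 208 to 235 against 283 to 354 for endothelium and pericytes. With the trend on counts per kilobase of exon removed, as described below, several of these lower markers were near 0. They included Slc17a7 (-0.92, then -0.06 on the log2 scale), Slc1a2 (-0.75, then 0.11), Mbp (-0.69, then 0.07) and Gad2 (-0.54, then -0.10). Of the lower markers in these lists, Mpped1, Zbtb20, Slc32a1, Cldn11, Pdgfrb, Rgs5 and Flt1 alone kept an edgeR adjusted p under 0.05. Microglia had 2 of 7 members lower, oligodendrocyte precursors had 1 of 3 higher and 1 lower, and the 3 thalamic markers were not called. The summed levels of microglia, oligodendrocyte precursors and thalamic markers overlapped between genotypes. The hippocampal markers Prox1, Neurod6 and Slc17a7 were present in every library, and the 6 hypothalamic peptide genes had 0 to 21 counts each. Of 5 striatal markers 2 were higher (Gpr6 1.03 and Ppp1r1b 0.81 on the log2 scale) and 0 lower, and their sums overlapped at 131 to 219 CPM in homozygous and 119 to 244 CPM in wild-type libraries. Choroid plexus sums varied between animals, at 105 to 836 CPM in homozygous and 199 to 1202 CPM in wild-type libraries, and 1 of 6 members was lower. The part of the marker differences in the results below was not tested. In bulk tissue, fewer cells of a type and less RNA per cell cannot be told apart.

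Of the 53 genes, 15 were higher and 12 lower in homozygous hippocampus at an adjusted p under 0.05 (edgeR's quasi-likelihood test, Benjamini-Hochberg adjustment over 20478 genes), and 26 passed in neither direction. Over all genes tested 20.7% were higher and 20.4% lower, so that 41.1% were called, against 50.9% of the guidance genes. Among the 13716 genes with a mean CPM within the range of the guidance genes, 12.5 to 388 CPM, 47.1% were called, 20.6% higher and 26.5% lower. The share of guidance genes called was therefore near the background. The 4 homozygous values lay entirely above the 4 wild-type values for 14 genes and entirely below for 11, against 18.8% of all genes for either direction, 37.6% in all. Within the same CPM range 43.3% of genes were separated in this way, 18.8% above and 24.5% below.

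Of 28 ligand genes 10 were higher and 5 lower, and their median log2 fold change was 0.30. Of 25 receptor genes 5 were higher and 7 lower, and the median was -0.07. The median over all genes tested was 0.05, and ligands were not tested against receptors. Over all genes tested 20.7% were higher and 20.4% lower, and within the CPM range of the guidance genes 20.6% and 26.5%. The receptor shares, 20% and 28%, were near the latter, and the ligand shares were 35.7% and 17.9%. The classes below hold few genes each and were not tested against these shares. The summed level of the ligand genes was 1946, 2272, 1796 and 1709 CPM in homozygous libraries, against 1591, 1626, 1475 and 1434 CPM in wild-type libraries, with no overlap. Without Sema6a the ligand sums were 1366, 1424, 1371 and 1325 CPM in homozygous and 1392, 1425, 1321 and 1224 CPM in wild-type libraries, and the groups overlapped. The receptor sums, 2622, 2372, 2244 and 2532 CPM in homozygous against 3098, 2515, 3072 and 2623 CPM in wild-type libraries, overlapped as well.

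Fold changes in these libraries ran with abundance and with counts per kilobase of exon, so each fold was also computed after that density trend had been removed by a loess curve. There 13 guidance genes were higher and 6 lower, over a background of 17% higher and 15.2% lower. With library totals as the scaling, without TMM factors, 21 were higher and 5 lower, over 32.4% and 11.8% of all genes, and the median of all genes moved to 0.25. Receptor genes had a median of 0.00 with the density trend removed and 0.12 with library totals, and ligand genes 0.23 and 0.50. With the abundance trend removed the medians lay closer together. Receptor genes then had 0.15, with 8 higher and 2 lower, and ligand genes 0.26, with 11 higher and 4 lower. Over all genes tested 18.1% were higher and 16.3% lower in that setting.

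**Figure D1:**
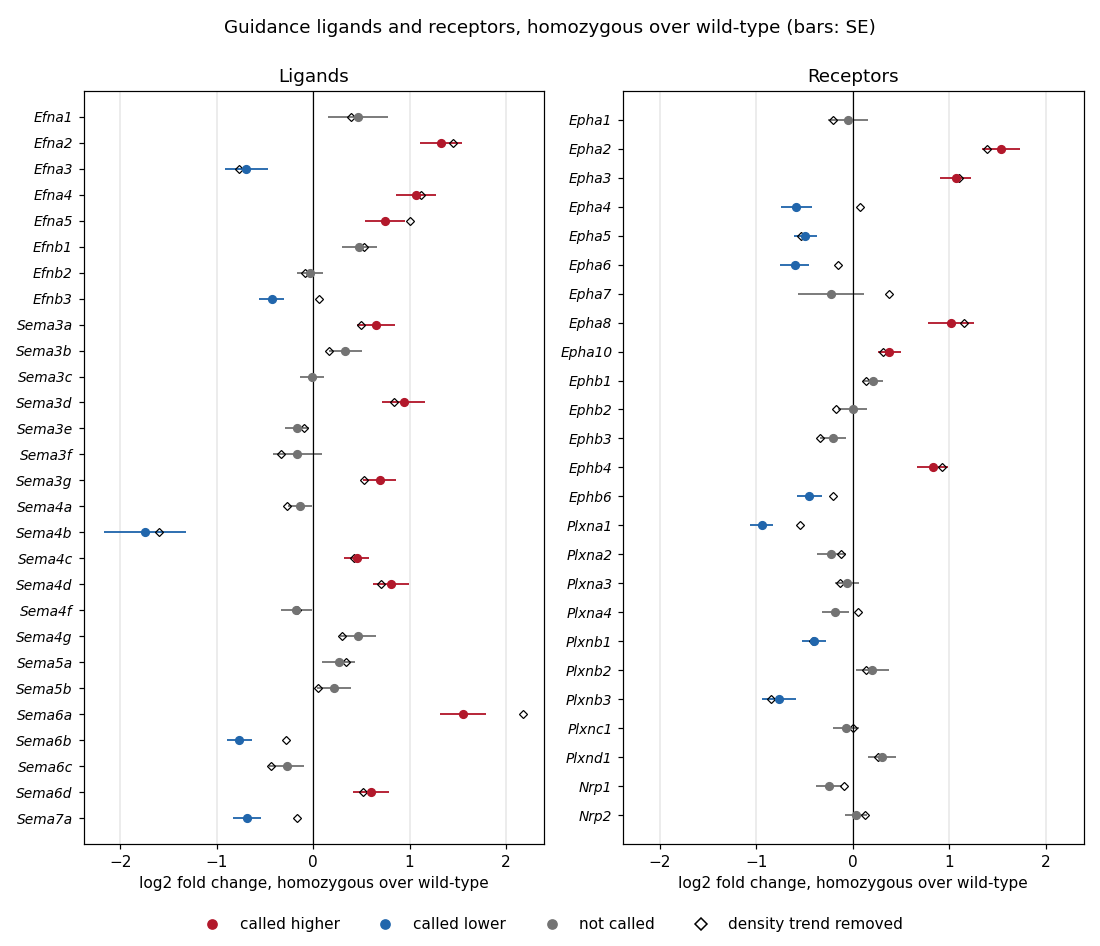
Log2 fold change, homozygous over wild-type, of 28 ligand and 25 receptor genes (x axis), 1 gene per line, with bars for the SE; red points were called higher, blue points lower and grey points neither at an adjusted p under 0.05 in edgeR, and open diamonds give the fold with the density trend removed. Sema6a (1.55), Epha2 (1.54) and Efna2 (1.33) lie farthest to the right and Sema4b (-1.74) farthest to the left, and, among called genes, the diamonds of Epha4 and Efnb3 lie on the other side of 0 from their points.

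Among the ephrin-A ligands, 3 of 5 were higher and 1 lower. Efna2, a ligand known for topographic maps of the midbrain, had 36.4, 18.3, 40.8 and 36.1 CPM in homozygous libraries, against 13.3, 12.9, 13.2 and 13.0 CPM in wild-type libraries. Every homozygous library was above every wild-type library, replicate 16 the nearest to them, and the wild-type values were tight (log2 fold change 1.33, SE 0.22, edgeR adjusted p 0.000982). Efna4 had 16.96, 16.6, 19.7 and 28.5 CPM in homozygous libraries, against 8.57, 9.15, 8.98 and 11.99 CPM in wild-type libraries, again without overlap (log2 fold change 1.06, SE 0.21, edgeR adjusted p 0.00253). Efna5, the ephrin-A with the highest level per kilobase (19.1 CPM per kb in homozygous and 11.4 in wild-type libraries), had 58.3, 54.9, 96.3 and 98.0 CPM in homozygous libraries, against 39.2, 52.9, 42.2 and 49.4 CPM in wild-type libraries (log2 fold change 0.74, SE 0.21, edgeR adjusted p 0.014). Homozygous replicates 17 and 18 stood above 15 and 16, whose values came close to wild-type replicate 8.

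Efna3 went the other way. This ligand is known in mouse hippocampus for its place on astrocytes, where it meets EphA4 of dendritic spines, and it had 10.8, 12.5, 17.3 and 9.98 CPM in homozygous libraries, against 21.9, 12.9, 22.9 and 22.7 CPM in wild-type libraries. Wild-type replicate 8 lay among the homozygous values, so the groups overlapped. The call (log2 fold change -0.70, SE 0.22, edgeR adjusted p 0.0274) ended in 5 of 8 fits that each left out 1 library: homozygous replicates 15 (edgeR adjusted p 0.0814) and 18 (0.0634), and wild-type replicates 7 (0.0664), 9 (0.0787) and 10 (0.068). It also ended with library totals in place of TMM (-0.50, edgeR adjusted p 0.097). Efna1 was not called (0.46, edgeR adjusted p 0.245), and homozygous replicate 16 alone reached 25.0 CPM.

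Efna3 and Efna4 are neighbours on the minus strand of chromosome 3 (build mm10), at positions 89313899 to 89322965 and 89333390 to 89338028, 10424 bp apart. Their promoters are shown because these neighbours were called in opposite directions, beside those of Epha2, the receptor gene with the largest rise, and Sema6b, a ligand gene that was lower. Each runs from 250 bases before to 50 after the first start listed by RefSeq on GRCm38.p6, 5′ to 3′ along the gene. Capitals mark the GC box, the letters GGGCGG searched on both strands.
Efna4 (chr3:89337979-89338278, minus strand): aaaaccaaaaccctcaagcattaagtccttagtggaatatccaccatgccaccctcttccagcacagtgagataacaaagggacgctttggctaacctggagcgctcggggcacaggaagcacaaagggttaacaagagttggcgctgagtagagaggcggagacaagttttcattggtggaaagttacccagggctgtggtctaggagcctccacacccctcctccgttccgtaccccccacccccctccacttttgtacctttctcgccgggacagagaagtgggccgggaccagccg
Efna3 (chr3:89322890-89323189, minus strand): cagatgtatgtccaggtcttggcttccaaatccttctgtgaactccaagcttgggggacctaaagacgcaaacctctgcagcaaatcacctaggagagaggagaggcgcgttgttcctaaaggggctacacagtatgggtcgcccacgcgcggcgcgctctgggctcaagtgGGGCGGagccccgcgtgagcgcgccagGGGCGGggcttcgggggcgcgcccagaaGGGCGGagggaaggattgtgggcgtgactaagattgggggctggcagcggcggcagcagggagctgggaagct
Epha2 (chr4:141300971-141301270, plus strand): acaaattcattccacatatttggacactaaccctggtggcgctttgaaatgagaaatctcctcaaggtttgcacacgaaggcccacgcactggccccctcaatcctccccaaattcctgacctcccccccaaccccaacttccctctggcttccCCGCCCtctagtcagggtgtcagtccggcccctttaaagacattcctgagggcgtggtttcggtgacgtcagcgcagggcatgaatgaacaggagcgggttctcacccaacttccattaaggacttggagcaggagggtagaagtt
Sema6b (chr17:56140294-56140593, minus strand): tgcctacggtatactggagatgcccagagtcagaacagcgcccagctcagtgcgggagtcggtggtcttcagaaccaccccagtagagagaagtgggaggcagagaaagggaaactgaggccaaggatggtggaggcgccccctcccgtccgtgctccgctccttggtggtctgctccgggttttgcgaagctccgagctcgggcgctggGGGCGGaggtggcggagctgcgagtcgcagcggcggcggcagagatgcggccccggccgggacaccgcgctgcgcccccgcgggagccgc
The Efna4 window held no GC box and 11 CpG dinucleotides, and the Efna3 window held 3 GC boxes and 22 CpG. The Epha2 and Sema6b windows held 1 GC box each, with 10 and 29 CpG.

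Of the 53 genes 47 were matched in the promoter table, all but Efnb3, Plxna1, Plxna4, Sema3b, Sema3f and Sema6a. A GC box stood in at least 1 listed promoter of 10 of 14 genes that were higher, 9 of 10 that were lower and 18 of 23 that were not called, against 38.2% of 27025 genes. Median GC content of the first listed promoter was 59.7%, 64.8% and 67% in these groups, against 52.7% over all promoters of 300 bases. Comparison sets here and below cover every gene with a listed promoter, tested or not, and shares over tested genes alone were not computed. The UPRE core TGACGTG, known from unfolded protein response targets, stood in 0 of 47, against 2.22% of all genes, and the ER stress response element (ERSE) in 0 of 47, against 0.137%. Both were searched on both strands, and a window without these letters says nothing of the factors.

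Counting adds a limit for this pair. Efna3 shares 344 of 2434 exon bases (14.1%) with the antisense gene Gm15998, and Efna4 shares 168 of 1599 (10.5%) with the antisense gene 4731419I09Rik. No source used here gives the strand setting of the counts, so reads of both strands cannot be told apart. In all, 14 of the 53 genes share exon bases with another annotated gene.

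Of the 3 ephrin-B ligands 1 was called. Efnb3, a ligand known in mice as a midline barrier for corticospinal axons and the ephrin with the highest level per kilobase (23.1 CPM per kb in homozygous and 31.2 in wild-type libraries), had 68.7, 65.3, 84.4 and 76.0 CPM in homozygous libraries, against 113, 89.2, 103 and 90.7 CPM in wild-type libraries. No homozygous library reached the wild-type range (log2 fold change -0.43, SE 0.13, edgeR adjusted p 0.0215). The sign turned with the density trend removed (0.06, edgeR adjusted p 0.684), and without TMM factors the log2 fold change was -0.23 (edgeR adjusted p 0.169). The call also ended without homozygous replicate 15 (edgeR adjusted p 0.0592) or wild-type replicate 7 (0.0729) or 9 (0.059). Efnb1, mutated in human craniofrontonasal syndrome (0.48, edgeR adjusted p 0.0568), and Efnb2, an arterial marker (-0.03, edgeR adjusted p 0.852), did not pass.

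Eph receptor genes split within the EphA class, with 4 of 9 higher and 3 lower. Epha2, best known from epithelia and tumours, had 33.7, 47.6, 24.3 and 33.5 CPM in homozygous libraries, against 10.7, 11.2, 13.3 and 12.2 CPM in wild-type libraries. The lowest homozygous value was above the highest wild-type value (log2 fold change 1.54, SE 0.20, edgeR adjusted p 0.000267), and the call held with the density trend removed (1.40, edgeR adjusted p 0.000557). Its level was low, 7.44 CPM per kb in homozygous and 2.54 in wild-type libraries. Epha3, a receptor of ephrin-A5, had 108, 140.0, 92.8 and 92.2 CPM in homozygous libraries, against 59.8, 51.5, 45.4 and 50.3 CPM in wild-type libraries (log2 fold change 1.07, SE 0.16, edgeR adjusted p 0.00056). Both genes kept their call in every alternative run.

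Epha8 had 49.6, 109, 47.4 and 74.3 CPM in homozygous libraries, against 34.7, 33.6, 38.0 and 31.1 CPM in wild-type libraries. Homozygous replicate 16 was highest and replicate 17 lowest, and the groups did not overlap (log2 fold change 1.02, SE 0.24, edgeR adjusted p 0.00625). Epha10, whose kinase domain is held to be inactive, averaged 57.9 ± 6.51 CPM in homozygous and 44.5 ± 2.47 CPM in wild-type libraries (SD, n = 4 each), without overlap (log2 fold change 0.38, SE 0.12, edgeR adjusted p 0.0245). Its call ended with the density trend removed (0.31, edgeR adjusted p 0.0593), and also without homozygous replicate 17 (edgeR adjusted p 0.0716) or wild-type replicate 7 (0.0771) or 10 (0.0643). Epha1 was not called (-0.05, edgeR adjusted p 0.861), and 6.01% of its exon bases are shared with Zyx.

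The EphA genes that were lower were Epha4, Epha5 and Epha6. Epha4, the receptor that binds both ephrin classes and acts at hippocampal spines, had the highest wild-type level per kilobase of all 53 genes (38.5 CPM per kb in homozygous and 57.9 in wild-type libraries). It had 328, 292, 296 and 326 CPM in homozygous libraries, against 546, 373, 542 and 403 CPM in wild-type libraries. All homozygous values lay below the wild-type range (log2 fold change -0.59, SE 0.16, edgeR adjusted p 0.0133), but wild-type replicates 8 and 10 were nearer to them than 7 and 9. The fold was near 0 with the density trend removed (0.08, edgeR adjusted p 0.678) and with the abundance trend removed (0.06, edgeR adjusted p 0.733), and without wild-type replicate 7 edgeR gave an adjusted p of 0.0521.

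Epha5, a neuronal receptor of ephrin-A5, had 106, 112, 99.2 and 109 CPM in homozygous libraries, against 147, 150.2, 168 and 133 CPM in wild-type libraries (log2 fold change -0.49, SE 0.12, edgeR adjusted p 0.00744). It kept its call with the density trend removed (-0.54, edgeR adjusted p 0.00575), not with the abundance trend removed (-0.14, edgeR adjusted p 0.337). Epha6 had 111, 103, 97.2 and 80.4 CPM in homozygous libraries, against 163, 127, 178 and 126 CPM in wild-type libraries (log2 fold change -0.60, SE 0.16, edgeR adjusted p 0.00992). Its fold was smaller with the density trend removed (-0.15, edgeR adjusted p 0.459). Without TMM factors none of Epha4 (-0.39), Epha5 (-0.29) and Epha6 (-0.40) passed, with edgeR adjusted p of 0.0754, 0.0665 and 0.064.

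Epha7, a further receptor of ephrin-A ligands, varied more between animals than between genotypes. It had 454, 189.9, 199.5 and 507 CPM in homozygous libraries, against 527, 229, 438 and 384 CPM in wild-type libraries. Homozygous replicates 16 and 17 and wild-type replicate 8 were low in their groups, and the genotypes overlapped over most of the range (log2 fold change -0.22, SE 0.34, edgeR adjusted p 0.62).

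Of the EphB receptors 1 of 5 was higher and 1 lower. Ephb4, known as the venous receptor of ephrin-B2, had 51.6, 48.2, 67.9 and 79.0 CPM in homozygous libraries, against 36.2, 31.5, 35.1 and 35.1 CPM in wild-type libraries, without overlap (log2 fold change 0.83, SE 0.16, edgeR adjusted p 0.00239), and it stayed called in all alternatives. Of the endothelial and pericyte list, 1 member was higher (Cdh5) and 3 were lower. Pecam1, Tek and Cldn5 were not called (log2 fold changes 0.01, 0.42 and -0.42). Pdgfrb had the highest level in its sum, given above, averaging 76.9 CPM in homozygous and 153 CPM in wild-type libraries. The part of these cells in the Ephb4 difference was not tested. Ephb6, a member without kinase activity, had 42.2, 39.2, 52.9 and 47.0 CPM in homozygous libraries, against 59.4, 67.8, 65.8 and 54.9 CPM in wild-type libraries (log2 fold change -0.45, SE 0.13, edgeR adjusted p 0.0172). The call ended with the density trend removed (-0.21, edgeR adjusted p 0.22), without TMM factors (-0.25, edgeR adjusted p 0.123) or without homozygous replicate 15 (edgeR adjusted p 0.050).

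The receptors best known from excitatory synapses, Ephb1 (0.21, edgeR adjusted p 0.136), Ephb2 (0.00, edgeR adjusted p 0.992) and Ephb3 (-0.20, edgeR adjusted p 0.248), were not called. The Ephb1 values did not overlap, at 53.2, 50.0, 48.3 and 54.6 CPM in homozygous libraries, against 46.7, 45.1, 45.6 and 40.8 CPM in wild-type libraries, and edgeR did not call the difference.

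**Figure D2:**
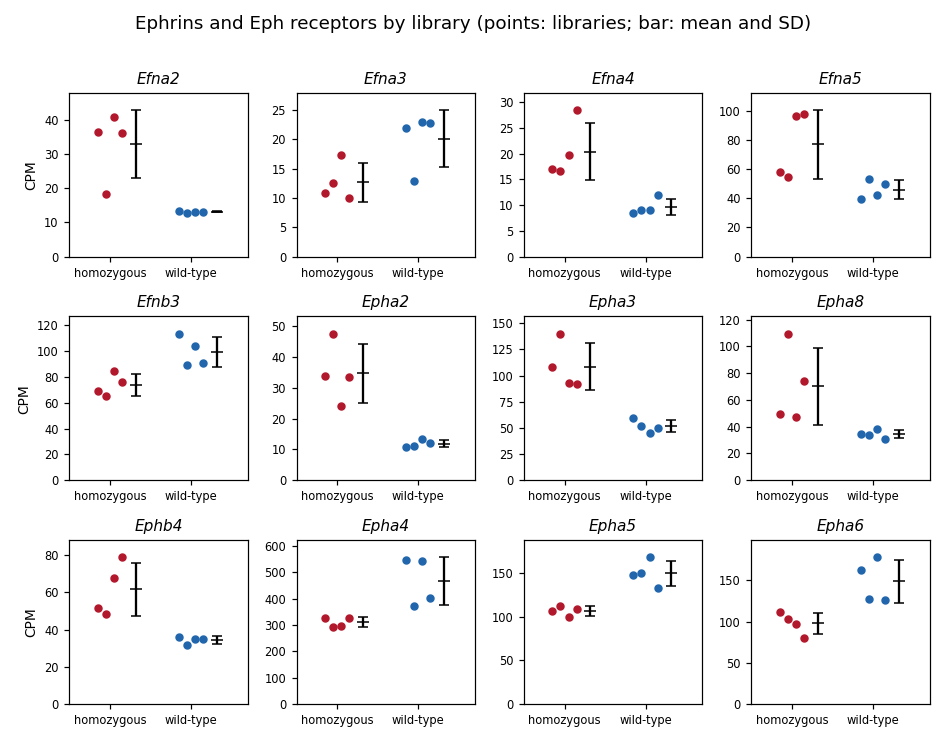
CPM (y axis, from 0) of 5 ephrin and 7 Eph receptor genes in 4 homozygous (red, left) and 4 wild-type (blue, right) libraries, each point 1 library, with the mean and SD beside them. The homozygous points of Efna2, Efna4, Efna5, Epha2, Epha3, Epha8 and Ephb4 all lie above the wild-type points, those of Efnb3, Epha4, Epha5 and Epha6 all lie below, and those of Efna3 overlap through wild-type replicate 8 (12.9 CPM).

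Class 3 semaphorins, the secreted ligands, had 3 of 7 members higher and 0 lower. Sema3d had 50.2, 114, 63.3 and 60.2 CPM in homozygous libraries, against 37.7, 38.3, 36.7 and 37.2 CPM in wild-type libraries. Wild-type values were tight and homozygous replicate 16 stood far above the others (log2 fold change 0.94, SE 0.22, edgeR adjusted p 0.00676); without it the log2 fold change was 0.62 (edgeR adjusted p 0.00315). Sema3g, known from vascular endothelium, had 19.1, 28.8, 18.2 and 19.7 CPM in homozygous libraries, against 13.3, 12.2, 13.5 and 13.7 CPM in wild-type libraries (log2 fold change 0.69, SE 0.17, edgeR adjusted p 0.00846), and replicate 16 was again the highest homozygous library. Sema3a, the founding repellent and ligand of neuropilin-1, averaged 70.9 ± 18.7 CPM in homozygous and 45.4 ± 9.97 CPM in wild-type libraries (SD, n = 4 each). Its groups overlapped (log2 fold change 0.65, SE 0.20, edgeR adjusted p 0.0214), and its call ended with the density trend removed (0.49, edgeR adjusted p 0.0683) and without wild-type replicate 7 (edgeR adjusted p 0.056), 9 (0.0656) or 10 (0.0559).

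The other class 3 genes did not pass. They were Sema3b (0.33, edgeR adjusted p 0.134), Sema3c (-0.01, edgeR adjusted p 0.935), Sema3f, the ligand of neuropilin-2 on mossy fibres (-0.17, edgeR adjusted p 0.618), and Sema3e, the ligand of plexin-D1. Sema3e had the highest wild-type level per kilobase of this class, with 94.3, 81.6, 96.6 and 78.1 CPM in homozygous libraries, against 88.3, 96.6, 113 and 95.7 CPM in wild-type libraries, and the groups overlapped (log2 fold change -0.17, SE 0.13, edgeR adjusted p 0.306). Sema3d, Sema3g and Sema3a lay in both genotypes at or below the 90th percentile of a gauge of genes with little known role in hippocampus (147 keratin, taste receptor, Cyp2 and Mrgpr genes). That percentile was 8.47 CPM per kb in homozygous and 7.61 in wild-type libraries.

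Of the 53 guidance genes 20 lay at or below that percentile in both genotypes, of which 7 were higher and 0 lower. Of all 11750 genes tested that lay there in both genotypes, 21% were higher and 6.91% lower, and the gauge genes themselves had a median of 4.31 CPM per kb in homozygous and 3.42 in wild-type libraries. The 20 guidance genes were the class 3 genes Sema3a, Sema3b, Sema3d, Sema3f and Sema3g, and Efna1, Epha1, Epha2, Epha10, Ephb1, Ephb2, Ephb3, Sema4a, Sema4d, Sema4g, Sema5b, Sema6c, Sema6d, Plxna3 and Plxnb2. Of 7 genes at or below it in wild-type libraries alone 6 were higher and 0 lower, and of 8 in homozygous libraries alone 0 were higher and 5 lower. Both of these groups were sorted by lying above it in the other genotype, which largely sets the direction of their calls. Their shares over all genes were not computed. Of the 18 above it in both, 2 were higher (Efna5 and Sema6a) and 7 lower. The share over all genes above it in both genotypes was not computed either, so these counts have no background.

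**Figure D3:**
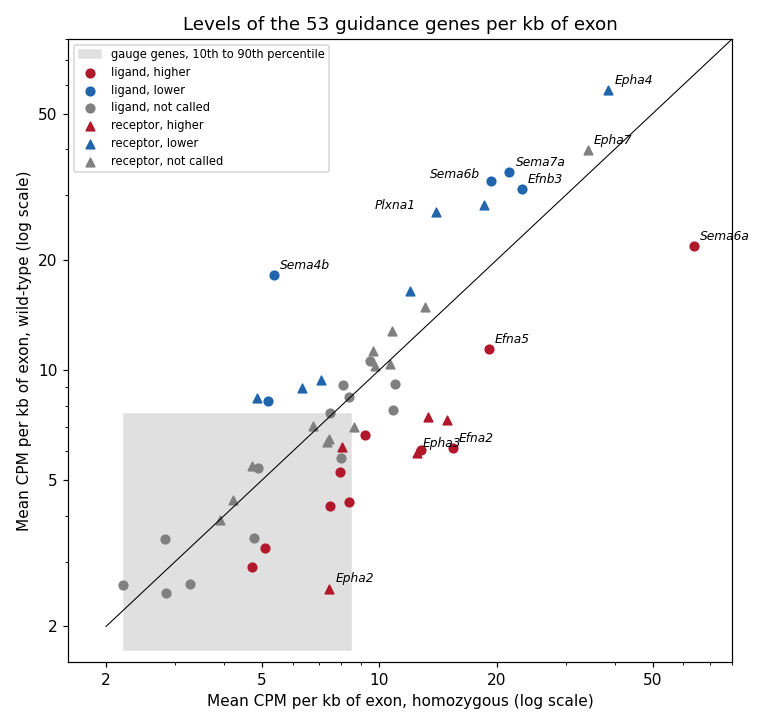
Mean CPM per kilobase of exon in homozygous (x axis, log scale) and wild-type libraries (y axis, log scale) for 53 genes, with circles for ligands, triangles for receptors, colours for the edgeR call and a line of equal levels. The grey box spans the 10th to 90th percentile of the 147 gauge genes, Sema6a lies far to the right at 63.7 in homozygous against 21.8 in wild-type libraries, and Epha4 is highest on the y axis.

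Class 4 semaphorins, membrane-bound ligands of class B plexins, had 2 of 6 higher and 1 lower. Sema4d, the ligand of plexin-B1, had 45.6, 41.8, 71.7 and 71.0 CPM in homozygous libraries, against 33.6, 27.8, 32.6 and 36.4 CPM in wild-type libraries (log2 fold change 0.81, SE 0.19, edgeR adjusted p 0.00622). Sema4c, a ligand of plexin-B2, had 35.0, 47.6, 40.2 and 45.8 CPM in homozygous libraries, against 31.5, 29.2, 32.6 and 29.2 CPM in wild-type libraries (log2 fold change 0.45, SE 0.13, edgeR adjusted p 0.0162). Both were higher in every homozygous library and stayed called in all alternatives.

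Sema4b had the most negative fold of the 53 genes, and 1 library set its size. It had 28.4, 34.6, 33.0 and 25.5 CPM in homozygous libraries, against 86.8, 222, 57.4 and 44.4 CPM in wild-type libraries. The homozygous values were close together and the wild-type values were not, with replicate 8 far above the others (log2 fold change -1.74, SE 0.42, edgeR adjusted p 0.00767). Without wild-type replicate 8 the log2 fold change was -1.07 (edgeR adjusted p 0.00412), and the groups still did not overlap. Sema4a (-0.14, edgeR adjusted p 0.399), Sema4f (-0.17, edgeR adjusted p 0.406) and Sema4g (0.46, edgeR adjusted p 0.0679) were not called.

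Among class 5 to 7 semaphorins, 2 of 7 were higher and 2 lower. Sema6a, a transmembrane ligand of plexin-A2 and plexin-A4 known from mossy fibre lamination in mice, had 580.2, 847, 425 and 383 CPM in homozygous libraries, against 198, 201, 155 and 210.0 CPM in wild-type libraries. Each homozygous library was above each wild-type library, and replicate 16 was highest (log2 fold change 1.55, SE 0.24, edgeR adjusted p 0.000698). The difference was larger with the density trend removed (2.18, edgeR adjusted p 0.000241), and leaving out each library in turn gave 1.27 to 1.69. With 63.7 CPM per kb in homozygous and 21.8 in wild-type libraries, it was the guidance gene with the highest homozygous level per kilobase. Sema6d, a ligand of plexin-A1, averaged 83.7 ± 21.9 CPM in homozygous and 55.7 ± 7.73 CPM in wild-type libraries (SD, n = 4 each), with overlap (log2 fold change 0.59, SE 0.19, edgeR adjusted p 0.0247). Its call ended with the density trend removed (0.51, edgeR adjusted p 0.0534) and without homozygous replicate 15 (edgeR adjusted p 0.0715) or 17 (0.0668) or wild-type replicate 9 (0.0779) or 10 (0.0611).

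Sema6b, a further transmembrane ligand of class A plexins, had 82.3, 79.9, 75.8 and 68.1 CPM in homozygous libraries, against 140.1, 111, 147 and 124 CPM in wild-type libraries (log2 fold change -0.77, SE 0.13, edgeR adjusted p 0.0011). Sema7a, a lipid-anchored semaphorin that binds plexin-C1 and integrins, had 77.7, 72.0, 65.1 and 69.0 CPM in homozygous libraries, against 126, 97.3, 136 and 97.2 CPM in wild-type libraries (log2 fold change -0.69, SE 0.14, edgeR adjusted p 0.0034). Both were lower in every homozygous library, and neither passed with the density trend removed (Sema6b -0.28, edgeR adjusted p 0.0938, and Sema7a -0.17, edgeR adjusted p 0.337). Sema5a (0.26, edgeR adjusted p 0.237), Sema5b (0.22, edgeR adjusted p 0.337) and Sema6c (-0.28, edgeR adjusted p 0.234) were not called.

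Plexins, the semaphorin receptors, had 0 of 9 genes higher and 3 lower, and their median log2 fold change was -0.18. The median turned to 0.15 with the abundance trend removed and to 0.02 with library totals, each with 1 plexin gene higher and 2 lower. With the density trend removed it was -0.13, with 0 higher and 3 lower. Plxna1, a signalling partner of neuropilins, had 137, 116, 131 and 122 CPM in homozygous libraries, against 247, 256, 253 and 220.1 CPM in wild-type libraries. The groups stood far apart (log2 fold change -0.95, SE 0.12, edgeR adjusted p 0.000257), and leaving out each library in turn left it called. The call held with the density trend removed (-0.55, edgeR adjusted p 0.00539). Plxna1 (chromosome 6, 89316314 to 89362620 in mm10, minus strand) shares 970 of its 9054 exon bases (10.7%) with the antisense gene Gm26811. The plexin genes together had 882, 841, 826 and 777 CPM in homozygous libraries, against 1067, 1017, 1072 and 977 CPM in wild-type libraries. Without Plxna1 the sums were 745, 725, 695 and 655 CPM against 819.6, 761, 819.8 and 757 CPM, and the groups did not overlap in either.

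Plxnb3, a receptor of Sema5A, had 35.0, 31.1, 33.5 and 26.7 CPM in homozygous libraries, against 49.9, 73.6, 41.2 and 52.6 CPM in wild-type libraries (log2 fold change -0.77, SE 0.18, edgeR adjusted p 0.00559). Its groups did not overlap, wild-type replicate 8 was highest, and it stayed called in all alternatives. The oligodendrocyte list, in which 6 of 7 members were lower, had 964 to 1189.8 CPM in homozygous and 1426 to 2274 CPM in wild-type libraries, and its part in the Plxnb3 difference was not tested. Plxnb1, the receptor of Sema4D, had 79.7, 63.3, 60.4 and 69.3 CPM in homozygous libraries, against 96.2, 86.8, 92.7 and 84.4 CPM in wild-type libraries (log2 fold change -0.40, SE 0.12, edgeR adjusted p 0.023). Its call held with the density trend removed (-0.41, edgeR adjusted p 0.026). It ended with the abundance trend removed (-0.18, edgeR adjusted p 0.267), without TMM factors (-0.19, edgeR adjusted p 0.243), and without homozygous replicate 17 (edgeR adjusted p 0.0545) or wild-type replicate 7 (0.0713) or 9 (0.0629).

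The remaining plexin genes did not pass: Plxna2 (-0.22, edgeR adjusted p 0.255), Plxna3 (-0.06, edgeR adjusted p 0.718), Plxna4 (-0.18, edgeR adjusted p 0.314), Plxnb2 (0.20, edgeR adjusted p 0.348), Plxnc1 (-0.07, edgeR adjusted p 0.691) and Plxnd1 (0.30, edgeR adjusted p 0.115). Neither neuropilin gene was called. Nrp1, the Sema3A receptor, had 127, 95.5, 107 and 93.0 CPM in homozygous libraries, against 129.8, 113, 137 and 121 CPM in wild-type libraries (log2 fold change -0.24, SE 0.13, edgeR adjusted p 0.165), and Nrp2, the Sema3F receptor, averaged 126 ± 6.29 CPM in homozygous and 123 ± 11.7 CPM in wild-type libraries (SD, n = 4 each; log2 fold change 0.03, SE 0.12, edgeR adjusted p 0.844).

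**Figure D4:**
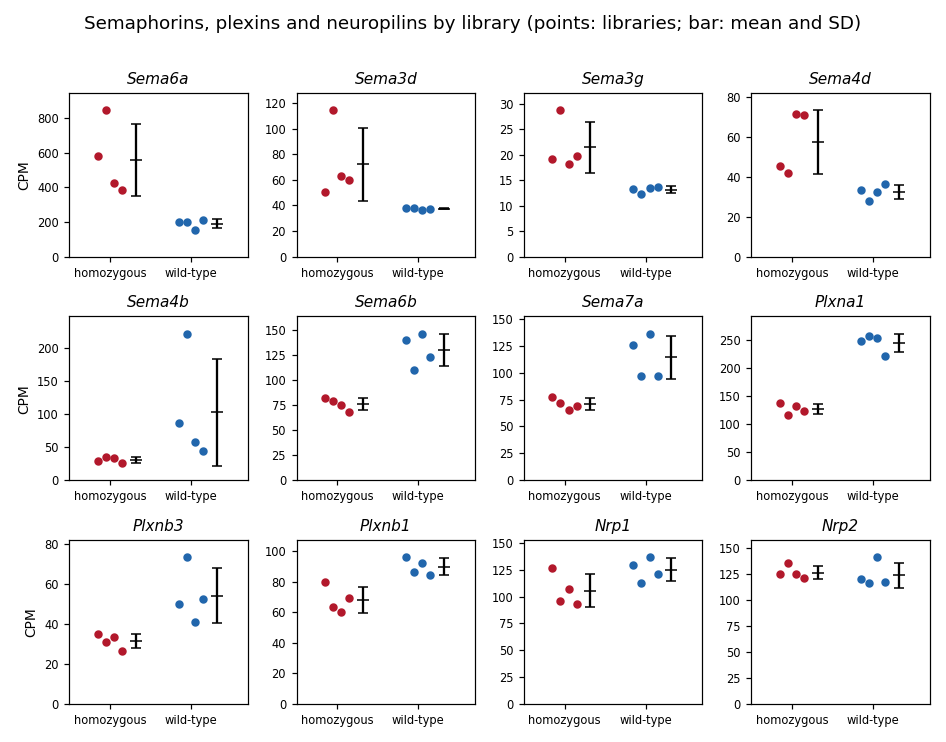
CPM (y axis, from 0) of 7 semaphorin, 3 plexin and 2 neuropilin genes in 4 homozygous (red, left) and 4 wild-type (blue, right) libraries, each point 1 library, with the mean and SD beside them. Homozygous points lie above all wild-type points for Sema6a, Sema3d, Sema3g and Sema4d and below them for Sema4b, Sema6b, Sema7a, Plxna1, Plxnb3 and Plxnb1; wild-type replicate 8 of Sema4b reaches 222 CPM.

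Matched ligand and receptor genes are set side by side without a test. Sema6a rose while its receptor genes Plxna2 and Plxna4 (-0.22 and -0.18 on the log2 scale) were not called. Plxna1 fell while Sema6d rose, Sema6b fell and Nrp1 was not called. Sema4d rose while Plxnb1 fell, and Sema4c rose while Plxnb2 had 0.20 and was not called. Efna5 rose, its receptor gene Epha3 rose and Epha5 fell. Efna3 and Epha4 both fell, although the Epha4 fold turned to 0.06 with the abundance trend and 0.08 with the density trend removed. The calls of Sema6b, Sema6d, Plxnb1, Epha5 and Efna3 also ended in alternatives given above.

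Other genes of axon guidance came from a separate list. Of 21 measured further ligands and receptors, 5 were higher, 4 lower and 12 not called (median log2 fold change 0.04). Over all genes tested 20.7% were higher and 20.4% lower, so these shares were near the background. Dcc, the attractive netrin receptor, averaged 58.1 ± 2.69 CPM in homozygous and 129 ± 19.4 CPM in wild-type libraries (SD, n = 4 each; log2 fold change -1.15, SE 0.13, edgeR adjusted p 0.000127). Unc5d, a repulsive netrin receptor, averaged 126 ± 22.0 CPM in homozygous and 72.8 ± 3.71 CPM in wild-type libraries (SD, n = 4 each; log2 fold change 0.79, SE 0.14, edgeR adjusted p 0.00149), and Rgma, a ligand of neogenin, 37.0 ± 10.9 CPM in homozygous and 18.1 ± 2.50 CPM in wild-type libraries (SD, n = 4 each; log2 fold change 1.05, SE 0.20, edgeR adjusted p 0.00227). These 3 differences kept their call with the density trend removed.

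Of 38 co-receptors and cytoplasmic partners, 3 were higher, 12 lower and 23 not called, with a median of -0.19. The shares over all genes tested were 20.7% higher and 20.4% lower. Dpysl5, of the collapsin response mediator family that relays Sema3A signals, averaged 58.4 ± 13.0 CPM in homozygous and 32.2 ± 2.35 CPM in wild-type libraries (SD, n = 4 each; log2 fold change 0.86, SE 0.16, edgeR adjusted p 0.00168), whereas Crmp1 of the same family averaged 43.0 ± 7.76 CPM in homozygous and 74.1 ± 13.2 CPM in wild-type libraries (log2 fold change -0.78, SE 0.17, edgeR adjusted p 0.00421). Sdcbp, or syntenin, which binds the tails of ephrin-B ligands, averaged 132 ± 2.70 CPM in homozygous and 219.6 ± 11.0 CPM in wild-type libraries (log2 fold change -0.73, SE 0.11, edgeR adjusted p 0.000654), and the kinase gene Pak1 158 ± 15.7 CPM in homozygous and 259 ± 16.97 CPM in wild-type libraries (log2 fold change -0.71, SE 0.13, edgeR adjusted p 0.00156). With the density trend removed Sdcbp (-0.26, edgeR adjusted p 0.0845) and Pak1 (-0.03, edgeR adjusted p 0.875) did not pass. The summed level of these partner genes was 3667 to 4044 CPM in homozygous and 4401 to 5457 CPM in wild-type libraries. The part of the density trend in this sum was not tested.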

How the data were processed

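Ribosome-depleted total RNA of 8 hippocampi was sequenced on a SOLiD 4 instrument as paired reads of 50 and 35 bases from barcoded, pooled libraries, per the labels' protocols. The values deposited by the authors are raw counts per gene symbol, and the submitters' processing notes name build mm10. No source used here names the aligner, the counter, the strand setting or the gene models. The table held 0 count columns of no listed sample. Total counts ran from 3250949 to 6747411 per library. The p-values measure the spread between these animals, nothing says whether they were handled in batches, and differences in handling that go with genotype cannot be told apart from it.

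Low counts were removed with filterByExpr, TMM factors scaled the library sizes, and the genotypes were compared by the quasi-likelihood test of edgeR 4.0.16 (R 4.3.3), two-sided and with no covariate, over 20478 genes. Genes under an adjusted p of 0.05 (Benjamini-Hochberg) were called. The design was tested on simulated counts. Exon lengths and positions came from GENCODE M21, in which 97.6% of 24078 entries were matched, and promoters from RefSeq on GRCm38.p6. Trends on abundance or on counts per kilobase were removed with a loess curve of span 0.3 through offsets. The alternatives also covered other size factors and filters, removal of Rn45s and Lars2, robust dispersion, DESeq2 1.42.0, limma 3.58.1 (voom), a threshold of 0.1 and leaving out each library. Figures were made with matplotlib 3.10.9.

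The members and lists, the gauge of low levels included, were chosen with earlier results of these data known. All members are named. Values in every library are given for called members without overlap (at most 12 of smallest p in each direction) and for the member of highest level per kilobase in each class, and those of Efna3, Epha7 and Ephb1 were added after their values were seen. From the lists of partners, at most 4 called genes of smallest p in each direction are named, and 1 of them is not reported here.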

Additional observations from a re-analysis of the deposited data

Results flagged for a closer look

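Of 106 groups of 4 libraries (53 genes in each genotype), 4 held a library whose gap to the nearest other value, as a share of the group's range, was past Dixon's critical value, and chance gives about 1 group in 20. Sema3g reached 28.8 CPM in homozygous replicate 16, against 18.2 to 19.7 CPM in the other homozygous libraries. Efna3 was 12.9 CPM in wild-type replicate 8, against 21.9 to 22.9 CPM in the other wild-type libraries. Efna4 was 12 CPM in wild-type replicate 10, against 8.57 to 9.15 CPM, and Nrp2 was 141 CPM in wild-type replicate 9, against 116 to 120 CPM in the other wild-type libraries.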

How the results depend on the processing

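Of the 27 called guidance genes, 15 kept their direction and call in all 19 alternatives, 12 higher (Efna2, Efna4, Efna5, Epha2, Epha3, Epha8, Ephb4, Sema3d, Sema3g, Sema4c, Sema4d and Sema6a) and 3 lower (Plxna1, Plxnb3 and Sema4b). The threshold of 0.1, counted among the 19, was applied to the main fit and could not end a call. The count of lower genes, 12, was 5 with library totals in place of TMM, 6 with the abundance trend removed and 6 with the density trend removed, where the counts of higher genes, 15 with TMM, were 21, 19 and 13. Over all genes, library totals gave 6645 higher and 2412 lower, against 4241 and 4168 with TMM. With the abundance trend removed these were 3705 and 3335, and with the density trend removed 3430 and 3057. Epha4 turned to a log2 fold change of 0.060 with the abundance trend and 0.078 with the density trend removed, and Efnb3 to 0.064 with the density trend removed. The cause was not tested. DESeq2, robust dispersion, size factors of the DESeq2 type under edgeR, no filter or one on CPM and removal of Rn45s and Lars2 changed no call among the 53 genes. Leaving out each library gave 21 to 28 called genes, with 12 to 16 higher and 8 to 12 lower. No paired analysis was possible because the genotypes share no replicate number. The lowest value of a member in a library was 27 counts, and no limit of detection was measured on these files.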
